A study of Mus musculus with 4 samples.

Results

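The genes described here are those of the skeletal muscle sarcomere, of its calcium store and of its energy metabolism, taken as the rows of the deposited expression table whose symbol is in a list of 48 such genes. Of the 48, 16 were found among the 12661 genes of the table and are described below. They were *Acta1*, *Tnnt1*, *Tnnt3* and *Tnni2* of the thin filament, *Mylpf* and *Myl1* of the thick filament, *Myom1* and *Ldb3* of the M-band and Z-disc, *Atp2a1*, *Ryr1* and *Pvalb* of calcium handling, and *Ckm*, *Pygm*, *Eno3*, *Pgam2* and *Mb* of energy metabolism and oxygen storage. The other 32 were not analysed here. They are *Actn2*, *Actn3*, *Myh1*, *Myh2*, *Myh4*, *Myh7*, *Myl2*, *Myl3*, *Tnni1*, *Tnnc1*, *Tnnc2*, *Ttn*, *Neb*, *Casq1*, *Tcap*, *Myoz1*, *Myot*, *Cacna1s*, *Cacng1*, *Xirp2*, *Trdn*, *Mybpc1*, *Mybpc2*, *Myom2*, *Tmod4*, *Mylk2*, *Jph1*, *Ampd1*, *Smpx*, *Sln*, *Hrc* and *Lmod2*. The fast myosin heavy chains, titin and nebulin are thus outside the description. RNA came from tissue dissected off the outside of the femoral artery, mainly perivascular adipose tissue (PVAT), of wild type C57BL/6 female mice labelled 11 weeks old, all of them ovariectomized. The injury group had 2 libraries, taken 48 h after a spring wire 0.38 mm in diameter was passed into the artery, and the sham group had 2 libraries taken 48 h after sham operation. The labels do not say whether the libraries of a group came from separate animals, so the spread between them may be technical. A value is a signed number per gene and library on a log-like scale and is given in deposited units. What the values of a gene are centred on is not given in the sources used here. The 4 libraries alone do not set that centre, since 23.7% of genes have the same sign in all of them. Levels of different genes cannot be compared on this scale, read depth is unknown, and no fold change is printed.

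A sarcomere shortens when myosin heads of the thick filament pull on actin of the thin filament. Calcium released from the sarcoplasmic reticulum binds the troponin complex and opens actin to myosin. Fast and slow fibres build this machine from different genes, with separate isoforms of troponin T, troponin I, the myosin light chains and the calcium pump. The femoral artery runs between limb muscles, so tissue dissected around it can carry muscle fibres, and the genes were followed library by library for that reason. In bulk tissue, fewer fibres and less RNA per fibre cannot be told apart.

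Promoter sequences were available for 14 of the 16 genes in 18 windows, each running from 250 bases before to 50 bases after a RefSeq transcript start (build GRCm38.p6, read along the gene). *Tnnt3* and *Tnni2* had no window. The windows of 5 genes are shown because these genes fell into different orders across the libraries, as described below. *Acta1* encodes skeletal alpha-actin, *Mylpf* the fast regulatory light chain, *Ckm* muscle creatine kinase, *Myom1* the M-band protein myomesin and *Ldb3* a Z-disc protein that binds alpha-actinin. Capitals mark the E-box CAGCTG, a sequence that myogenic factors such as MyoD bind, and the CArG box, the sequence that serum response factor binds.
Acta1 window (chr8:123894726-123895025, minus strand): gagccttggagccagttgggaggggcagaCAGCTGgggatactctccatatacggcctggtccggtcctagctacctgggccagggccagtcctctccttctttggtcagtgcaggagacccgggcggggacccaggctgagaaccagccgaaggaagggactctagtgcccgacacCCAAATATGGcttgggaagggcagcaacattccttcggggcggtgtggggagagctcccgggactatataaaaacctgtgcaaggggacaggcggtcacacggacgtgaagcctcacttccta
Mylpf window (chr7:127211358-127211657, plus strand): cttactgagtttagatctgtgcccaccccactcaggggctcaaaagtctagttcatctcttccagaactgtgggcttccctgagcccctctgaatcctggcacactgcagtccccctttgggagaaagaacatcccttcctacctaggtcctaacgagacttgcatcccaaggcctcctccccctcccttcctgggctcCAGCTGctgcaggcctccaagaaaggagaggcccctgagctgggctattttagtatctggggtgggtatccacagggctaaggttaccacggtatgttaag
Ckm window (chr7:19410844-19411143, plus strand): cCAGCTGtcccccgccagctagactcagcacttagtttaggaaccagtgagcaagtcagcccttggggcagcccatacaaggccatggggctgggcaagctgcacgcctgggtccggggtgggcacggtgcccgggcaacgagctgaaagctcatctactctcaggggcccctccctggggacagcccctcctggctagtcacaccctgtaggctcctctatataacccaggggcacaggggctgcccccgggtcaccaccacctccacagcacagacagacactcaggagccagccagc
Myom1 window (chr17:71019307-71019606, plus strand): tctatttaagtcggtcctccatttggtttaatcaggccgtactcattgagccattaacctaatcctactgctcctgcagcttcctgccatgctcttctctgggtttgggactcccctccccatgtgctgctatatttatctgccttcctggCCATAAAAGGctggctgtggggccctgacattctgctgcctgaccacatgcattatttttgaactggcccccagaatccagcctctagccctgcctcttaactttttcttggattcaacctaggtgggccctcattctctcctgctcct
Ldb3 window (chr14:34588632-34588931, minus strand): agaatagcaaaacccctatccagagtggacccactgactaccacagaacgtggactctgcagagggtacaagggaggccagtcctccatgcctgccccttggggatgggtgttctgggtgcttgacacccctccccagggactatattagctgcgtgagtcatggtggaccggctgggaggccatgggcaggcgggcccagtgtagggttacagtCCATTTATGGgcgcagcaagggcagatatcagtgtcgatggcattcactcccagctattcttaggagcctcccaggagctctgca

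Of the 18 windows, 10 held CAGCTG, against 16.3% of all 32851 windows of this length. The genes with it were *Mylpf*, *Mb*, *Atp2a1*, *Ckm*, *Pygm*, *Acta1*, *Myl1*, *Pgam2* and *Eno3*, and the match in *Mb* lies where 2 windows overlap. A CArG box was found in 4 windows, against 1.63% of all windows, and belonged to *Acta1*, *Myom1* and *Ldb3*. The CArG box of *Acta1* begins at position -73 from the start, that of *Myom1* at -99 and that of the *Ldb3* window shown at -35, and the 2 overlapping *Ldb3* windows share it. The wider E-box CANNTG, which includes every CAGCTG, was in 14 of the 18 windows and in 72.3% of all windows. The MEF2 sequence was in 2 windows, those of *Pgam2* and *Pvalb* (1.86% of all), and CATTCC in 4, those of *Acta1*, *Myl1*, *Pgam2* and *Eno3* (14.7% of all). Both strands were searched, and a match is a stretch of letters and no evidence of binding. The marked sequences did not follow the orders across the libraries described below. *Pygm*, which shared the order of *Myom1* and *Ldb3*, held CAGCTG and no CArG box. *Tnnt1*, which shared the order of *Acta1*, held neither, and *Acta1* held both.

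Across the 16 genes, 14 had a lower mean in the injury libraries, against 49.1% of all genes tested. The median difference, injury minus sham, was -0.70 deposited units, against 0.01 over the 12661 genes. The 2 genes with a higher mean after injury were *Ryr1* and *Pvalb*. None of the 16 reached an adjusted p-value under 0.05 in limma, where 7.43% of all genes did. At an unadjusted p-value under 0.05 there were 10 of the 16, of which 8 were lower and 2 higher, against 29.5% of all genes. With an adjusted threshold of 0.1 there were 7, namely *Myom1*, *Ldb3*, *Mylpf*, *Mb*, *Atp2a1* and *Pygm* on the lower side (9.09% of all genes) and *Pvalb* on the higher (9.21%), against 18.3% of all genes in either direction. The groups did not overlap in 13 of the 16, against 61.9% of all genes. In 11 genes both injury libraries lay below both sham libraries, against 30.3% of all genes, and in *Ryr1* and *Pvalb* both lay above, against 31.6%. The size of the median rested on sham replicate 1. It was -0.31 without that library and between -0.57 and -0.97 without each of the others.

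**Figure D1:**
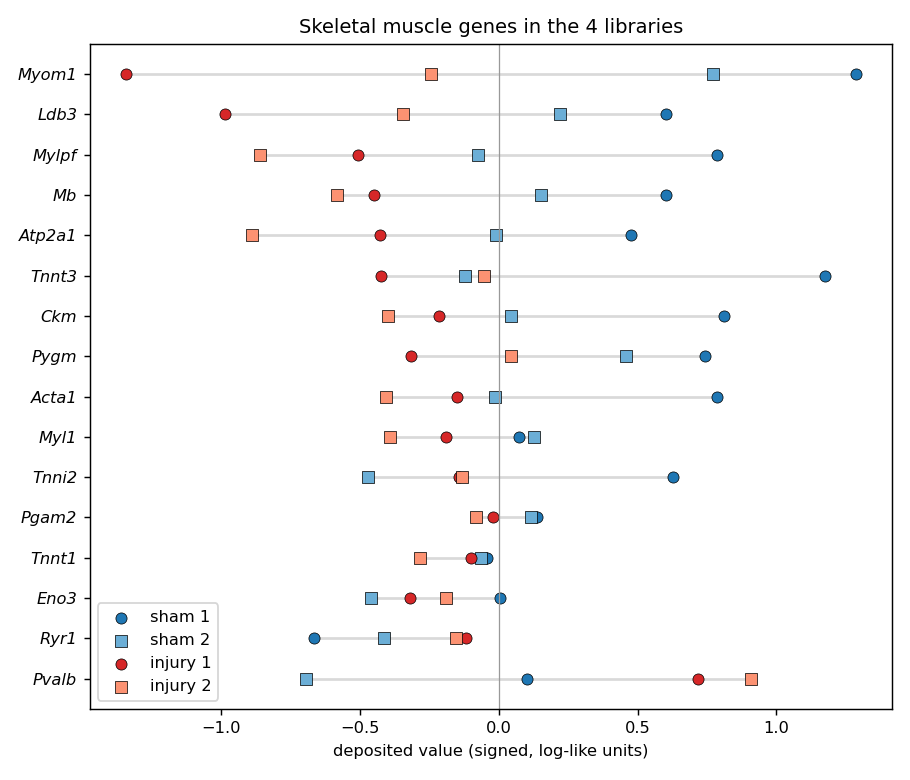
Deposited values (horizontal axis, signed log-like units) of the 16 skeletal muscle genes, 1 point per library, genes sorted by the difference between groups. Sham 1 lies to the right of sham 2 in 14 genes, among them *Tnnt3* at 1.17, while the injury libraries lie to the right of the sham libraries only in *Ryr1* and *Pvalb*.

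The libraries were then compared one by one. The median over the 16 genes was 0.60 in sham 1, -0.01 in sham 2, -0.27 in injury 1 and -0.26 in injury 2. In these medians the sham libraries stood further apart than the injury libraries, and sham 2 was nearer to both injury libraries than to sham 1. Sham 1 was above sham 2 in 14 of the 16 genes, against 51.6% of all genes, with a median gap of 0.48 (0.01 over all genes). Between the injury libraries the median gap was 0.05, with gaps of both signs and a median size of 0.20, and 9 of the 16 genes were higher in injury 1, against 48.9% of all genes. *Myom1*, *Ldb3*, *Pygm*, *Myl1*, *Pgam2* and *Tnnt1* had a wider gap between the injury libraries than between the sham libraries. In 6 genes the larger of these gaps exceeded the difference between the groups, which was so for 51% of all genes. These were *Tnnt3*, *Tnni2*, *Acta1*, *Ckm*, *Tnnt1* and *Eno3*. The gap between the sham libraries was not limited to skeletal muscle genes. The smooth muscle markers had a median gap of 0.66, with 10 of 10 higher in sham 1. It was 0.33 for Schwann cell markers (4 of 7 higher) and 0.31 for fibroblast and tendon genes (5 of 6), against -0.11 for adipocyte (2 of 12), -0.31 for brown adipocyte (2 of 10) and -0.41 for neutrophil markers (0 of 6). Endothelium (-0.10, 3 of 7) and macrophage markers (-0.14, 3 of 10) had small negative medians. The further muscle lists described below had smaller signed medians, of 0.10 for structural (8 of 9 higher in sham 1), 0.04 for triad and calcium (5 of 8), -0.02 for myogenic and neuromuscular (1 of 3) and -0.17 for metabolic genes (3 of 10). Some single genes of these lists had wide gaps, of both signs, such as *Des* (0.72), *Jph2* (0.63), *Mybph* (-0.75) and *Asph* (-0.61). For embryonic and cardiac isoforms the signed median was 0.06 (2 of 3) and for atrophy genes -0.10 (3 of 7). Without regard to sign, the median gap was 0.91 for embryonic and cardiac isoforms and 0.38 for atrophy genes. It was between 0.04 and 0.22 for the other further muscle lists, against 0.48 for the 16 genes and 0.15 over all genes. The part of these cell types in the gap of the 16 genes was not tested.

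Of the 16 genes, the widest gaps between the sham libraries were those of the fast troponins, which switch the thin filament on and off. *Tnnt3*, the fast isoform of troponin T (chromosome 7, 149684741 to 149701914, mm9), was at 1.17 in sham 1, -0.12 in sham 2, -0.43 in injury 1 and -0.05 in injury 2. Sham 1 alone stood apart, and the groups overlapped. Only 37 of the 12661 genes had a wider gap between the sham libraries. Its difference between groups was -0.77 (standard error 0.43, adjusted p = 0.295 from limma), and it was -0.12 without sham 1 and -1.41 without sham 2. *Tnni2*, the fast troponin I that holds actin closed at rest (chromosome 7, 149627713 to 149630315), was at 0.63, -0.47, -0.14 and -0.13 in the same order. Here sham 1 was the highest library and sham 2 the lowest, with both injury libraries between them, and 77 genes had a wider sham gap. The difference of *Tnni2* was -0.22 (standard error 0.36, adjusted p = 0.728), which was 0.33 without sham 1 and -0.77 without sham 2. *Tnni2* and *Tnnt3* lie 54425 bases apart. *Acta1* (chromosome 8, 126415669 to 126418651) had 0.79 and -0.01 in the sham libraries and -0.15 and -0.41 in the injury libraries. The groups did not overlap, but sham 2 lay closer to injury 1 than to sham 1, and the difference was -0.67 (standard error 0.29, adjusted p = 0.192). It was -0.27 without sham 1 and -1.07 without sham 2. Coding sequence of *Acta1* is close to that of the other actin genes, so its reads may have been shared out among them.

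*Tnnt1*, the troponin T of slow fibres (chromosome 7, 4456172 to 4467984), was the 1 gene of the 7 listed slow fibre genes that was analysed. It was at -0.04 and -0.07 in the sham libraries and at -0.10 and -0.28 in the injury libraries. The 4 values lay close together, with a sham gap of 0.02 where that of *Tnnt3* was 1.29. Its difference was -0.14 (standard error 0.14, adjusted p = 0.564). Taken as *Tnnt3* minus *Tnnt1* within each library, the fast to slow contrast of troponin T was 1.22 in sham 1, -0.06 in sham 2, -0.32 in injury 1 and 0.23 in injury 2. The contrast was again high in sham 1 alone. Its difference, injury minus sham, was -0.63. An exact two-sided permutation test over the 4 libraries gave p = 0.667, but with 2 against 2 it cannot go below 0.333 and so could not have passed the threshold.

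Fast fibre genes numbered 6 of 14 listed, and 5 of the 6 were lower after injury. Their median difference was -0.58, and it was -0.27 without sham 1 and -0.95 without sham 2. The fast median difference minus that of *Tnnt1* was -0.44, which became -0.14 without sham 1 and -0.80 without sham 2. The difference of *Tnnt1* itself ran from -0.23 without injury 1 to -0.05 without injury 2. With 1 slow gene, no general statement on slow fibres can be made from these values. *Mylpf* (chromosome 7, 134355122 to 134357812), whose window is printed above, was at 0.78 and -0.08 in the sham libraries and at -0.51 and -0.86 in the injury libraries. Its groups did not overlap, and the difference of -1.04 (standard error 0.31) had an adjusted p-value of 0.0979. The difference was -0.61 without sham 1 and -1.47 without sham 2. *Myl1*, the fast essential light chain (chromosome 1, 66970869 to 66991978), was at 0.07 and 0.12 after sham operation and at -0.19 and -0.39 after injury. It lacked the sham gap of *Mylpf*, with sham 2 the higher library, and differed by -0.39 (standard error 0.14, adjusted p = 0.149).

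**Figure D2:**
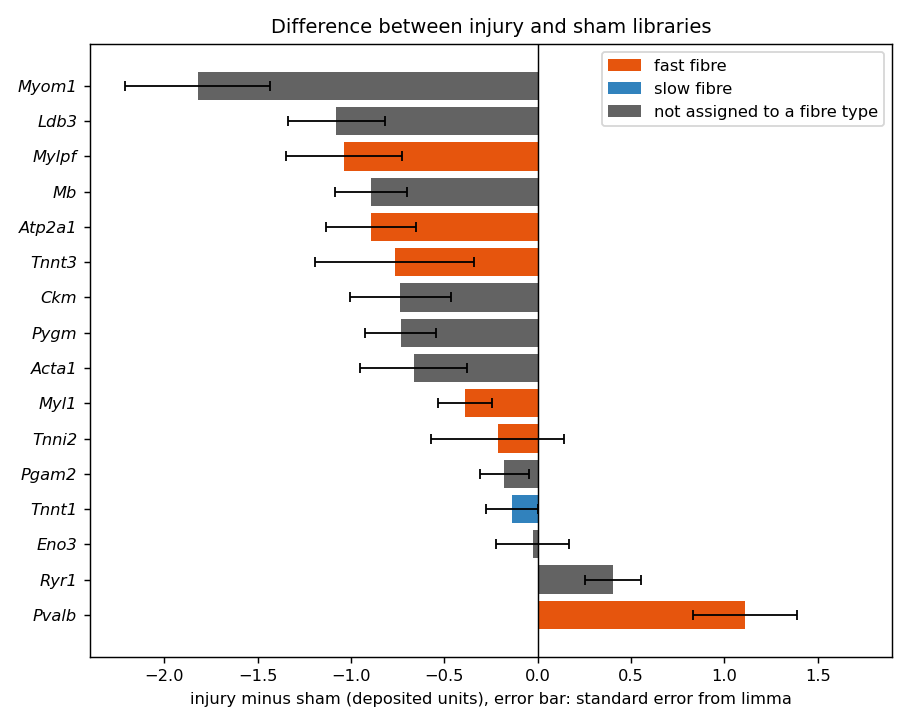
Difference, injury minus sham, in deposited units for the 16 genes, with bars from 0 and error bars of 1 standard error from limma (2 libraries per group). Bars are coloured by the fibre type that uses the gene, and *Pvalb* at 1.11 is the fast fibre gene that points the other way.

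Differences of both signs were seen among the calcium handling genes. *Atp2a1*, which encodes the fast calcium pump SERCA1 (chromosome 7, 133589372 to 133606622), was at 0.48 and -0.01 in the sham libraries and at -0.43 and -0.89 in the injury libraries. The difference was -0.89 (standard error 0.24, adjusted p = 0.0812). *Pvalb* encodes parvalbumin, the soluble calcium buffer of fast fibres (chromosome 15, 78021544 to 78036830), and had 0.10 and -0.70 after sham operation against 0.72 and 0.91 after injury. Both injury libraries were above both sham libraries, by 1.11 on average (standard error 0.28, adjusted p = 0.0713), or by 0.71 without sham 2. Sham 1 was above sham 2 in *Pvalb* as in the other fast genes except *Myl1*. *Ryr1*, the calcium release channel of the sarcoplasmic reticulum (chromosome 7, 29788359 to 29910170), was at -0.66 and -0.41 after sham operation and at -0.12 and -0.15 after injury. It was lowest in sham 1, the reverse of most of the 16 genes, and differed by 0.40 (standard error 0.15, adjusted p = 0.151).

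Among genes of energy metabolism, *Mb*, *Ckm* and *Pygm* had lower values in both injury libraries, and *Eno3* did not. *Mb*, the oxygen store myoglobin of oxidative fibres (chromosome 15, 76845919 to 76881100), was at 0.60 and 0.15 in the sham libraries and at -0.45 and -0.58 after injury. The groups differed by -0.89 (standard error 0.19), just short of the threshold (adjusted p = 0.0537). *Ckm*, which regenerates ATP from phosphocreatine (chromosome 7, 19996443 to 20006932), was at 0.81, 0.04, -0.22 and -0.40. Its sham gap of 0.77 was wider than its difference of -0.74 (standard error 0.27, adjusted p = 0.148), and the difference was -0.35 without sham 1 and -1.12 without sham 2. *Pygm*, the glycogen phosphorylase of muscle (chromosome 19, 6384399 to 6398459), was at 0.74, 0.46, -0.32 and 0.04, with injury 1 the lowest. It differed by -0.73 (standard error 0.19, adjusted p = 0.0750). The glycolytic genes *Pgam2* (chromosome 11, 5701643 to 5703736) and *Eno3* (chromosome 11, 70470704 to 70476015) had differences of -0.18 (adjusted p = 0.418) and -0.03 (adjusted p = 0.940). *Pgam2* was nearly level, between -0.08 and 0.14 in the 4 libraries. *Eno3* had its highest value in sham 1 (0.00) and its lowest in sham 2 (-0.46), so that the groups overlapped, and its difference was 0.21 without sham 1 and 0.04 without injury 1. Of the 16 genes, 7 lie on chromosome 7, which holds 7.94% of the 11682 genes of the table that matched the annotation.

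*Myom1* and *Ldb3* had the largest negative differences of the 16. *Myom1* (chromosome 17, 71368861 to 71476196) was at 1.29 and 0.77 in the sham libraries and at -1.34 and -0.24 in the injury libraries. The groups were well apart, but the injury libraries were 1.10 units from each other, with injury 1 the lower. The difference was -1.82 (standard error 0.39, adjusted p = 0.0530). *Ldb3* (chromosome 14, 35339885 to 35401867) was at 0.60, 0.22, -0.99 and -0.35, with injury 1 again the lowest, and differed by -1.08 (standard error 0.26, adjusted p = 0.0655). Without injury replicate 2, *Myom1*, *Ldb3* and *Pygm* passed the threshold (adjusted p = 0.00863, 0.0187 and 0.0415 from limma), and over all alternatives their adjusted p-values ran from 0.00863 to 0.269, from 0.0187 to 0.316 and from 0.0415 to 0.354. That fit called 1790 of the 12661 genes, where the fit to all 4 libraries called 941. With columns scaled to one spread *Myom1*, *Ldb3* and *Mb* passed it (adjusted p = 0.0386, 0.0470 and 0.0477), and after quantile normalization *Myom1* alone did (0.0460), the adjusted p of *Mb* running from 0.0477 to 0.256. These settings called 1130 and 1061 of all genes.

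The genes thus fell into different orders across the libraries, a pattern noticed after the values were seen. *Mylpf*, *Mb*, *Atp2a1*, *Ckm*, *Acta1*, *Pgam2* and *Tnnt1*, 7 of the 16, ran downward from sham 1 through sham 2 and injury 1 to injury 2, an order held by 6.59% of all genes. *Myom1*, *Ldb3* and *Pygm* ran from sham 1 through sham 2 and injury 2 to injury 1, an order held by 12.5% of all genes. Markers of smooth muscle, the contractile cell of the arterial wall, were read beside them. All 10 smooth muscle markers analysed (*Acta2*, *Myh11*, *Tagln*, *Cnn1*, *Mylk*, *Smtn*, *Lmod1*, *Des*, *Synpo2* and *Actg2*) had the order of *Myom1*, and none had the order of *Acta1*. Their values ran from 0.82 to 2.08 in sham 1, from 0.10 to 1.24 in sham 2, from -1.91 to -0.36 in injury 1 and from -0.59 to 0.13 in injury 2. Their median difference was -2.15, and 6 of the 10 fell by the limma test, against 3.67% of all genes. *Des*, which striated muscle expresses too, had the smallest difference of the 10 (-0.74, adjusted p = 0.134). The order of *Myom1* was not limited to smooth muscle. Of the further muscle lists below, 6 of 9 structural, 3 of 8 triad and calcium and 1 of 10 metabolic genes had it. So did 3 of 7 Schwann cell, 2 of 7 endothelium, 2 of 6 fibroblast and tendon and 2 of 12 adipocyte markers. No brown adipocyte, macrophage or neutrophil marker had it. Outside the 16 genes, the order of *Acta1* was held by 1 fibroblast and tendon gene and by no gene of the other lists. The part of smooth muscle in the values of *Myom1*, *Ldb3* and *Pygm* was not tested.

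**Figure D3:**
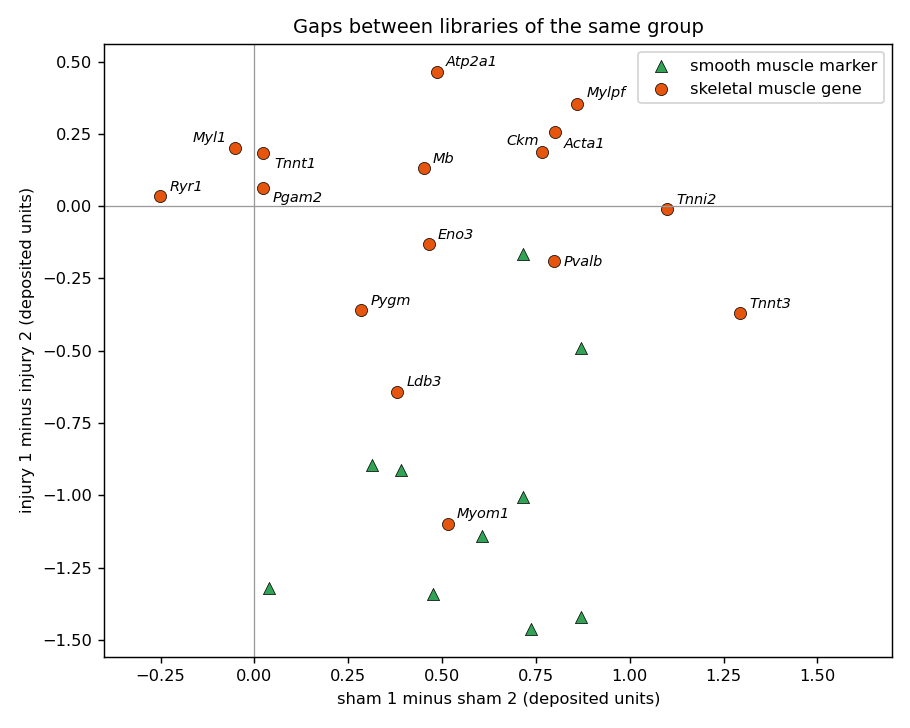
Gap between the sham libraries (horizontal axis) and between the injury libraries (vertical axis), in deposited units, for the 16 skeletal muscle genes (circles) and 10 smooth muscle markers (triangles). The smooth muscle markers all lie below 0 on the vertical axis, as do 7 of the 16 skeletal muscle genes. Among these 7 are *Myom1* at -1.10, *Ldb3* at -0.64, *Tnnt3* at -0.37 and *Pygm* at -0.36. *Atp2a1*, *Mylpf*, *Acta1* and *Ckm* are among the 9 above 0.

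Further genes of muscle were read from lists that the 16 are not part of. Of 24 other structural genes 9 were analysed, and 3 of them fell. *Hspb7*, a small heat shock protein of striated muscle, fell from 0.80 and 0.78 in the sham libraries to -1.06 and -0.39 in the injury libraries, a difference of -1.52 (standard error 0.24, adjusted p = 0.0320). *Dmd*, which encodes dystrophin, fell by 1.19 (adjusted p = 0.0301), and *Flnc*, the muscle filamin, fell by 1.09 (adjusted p = 0.0468). All 9 were lower in injury 1 than in injury 2, as the smooth muscle markers were, and *Des* is on both lists. *Fhl3* had the highest difference of this list, 0.40 (adjusted p = 0.191), or 0.26 without sham 2. Of 13 other triad and calcium genes 8 were analysed, all 8 had lower means after injury, and 1 fell. That gene was *Jph2*, a junctophilin that ties the sarcoplasmic reticulum to the surface membrane, with 1.45, 0.83, -1.12 and -0.21 and a difference of -1.81 (adjusted p = 0.0467). At the other end of this list was *Asph* (-0.06, adjusted p = 0.921), which was 0.35 without injury 1 and 0.25 without sham 2. Of 16 myogenic and neuromuscular genes 3 were analysed, and *Chrnb1*, a subunit of the acetylcholine receptor, fell by 0.81 (adjusted p = 0.0449), while *Mef2c* was nearly level (-0.03, adjusted p = 0.913) and was 0.12 without sham 1 and 0.03 without injury 2. In all, 5 genes of these 3 lists fell and none rose, against 3.67% of all genes lower and 3.76% higher.

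Metabolic genes of muscle outside the 16 had a median difference of 0.30. Of 14 listed 10 were analysed, 8 of them had higher means after injury, and 3 rose while none fell, against 3.76% of all genes higher and 3.67% lower. *Fabp3*, a fatty acid binding protein of heart and oxidative muscle, rose from 0.52 and 0.88 in the sham libraries to 2.89 and 2.61 in the injury libraries, a difference of 2.05 (standard error 0.19, adjusted p = 0.0285). *Cox7a1* and *Cox8b*, subunits of cytochrome c oxidase, rose by 0.91 and 0.78 (adjusted p = 0.0387 and 0.0368). All 3 are also expressed by brown adipocytes, and *Cox7a1* and *Cox8b* were on the brown adipocyte list too, of which 7 of 10 rose (3.76% of all genes), with a median difference of 1.12. *Phkg1*, a subunit of the kinase that activates *Pygm*'s enzyme, had the lowest difference of the metabolic list, -0.85 (adjusted p = 0.221), which was -0.23 without injury 1 and -1.47 without injury 2 (adjusted p = 0.00949, from 0.00949 to 0.528 over the alternatives). The rise of *Cox7a1* and *Cox8b* lost its call after quantile normalization (differences 0.53 and 0.65, adjusted p = 0.324 and 0.105). The same held with columns scaled to one spread (differences 1.08 and 0.93, adjusted p = 0.0708 and 0.0620) and with the replicate block (adjusted p = 0.0529 and 0.0595 from limma). *Flnc* and *Jph2* lost theirs with a robust variance prior (0.0503 and 0.0502). Over all alternatives the adjusted p-values ran to 0.324 for *Cox7a1*, 0.216 for *Cox8b*, 0.251 for *Flnc* and 0.240 for *Jph2*. All 8 calls were lost without sham replicate 1 and without sham replicate 2, where limma called 0 and 1 of all 12661 genes (1960 and 2553 at an unadjusted p-value under 0.05), and 6 were lost without injury replicate 1, *Hspb7* and *Fabp3* being kept.

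**Figure D4:**
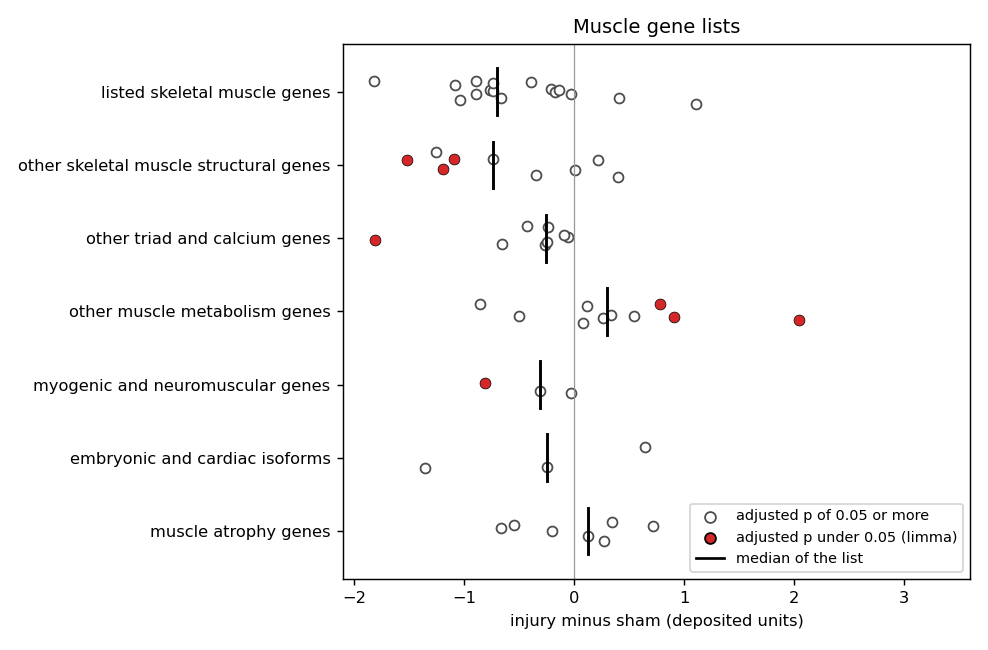
Difference, injury minus sham (horizontal axis, deposited units), for the 16 listed skeletal muscle genes and for 6 further lists of muscle genes, 1 point per gene, with a vertical line at each list's median. Filled points passed an adjusted p-value of 0.05 in limma, as none of the 16 did, and the metabolic list holds the 3 that rose.

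The same libraries differed in markers of further cell types. Adipocyte markers had a median difference of -0.13, with 6 of 12 higher and 6 lower and 1 called lower. Median differences were -0.73 for endothelium (2 of 7 fell), -0.66 for Schwann cells (2 of 7 fell) and -0.85 for fibroblast and tendon genes (3 of 6 fell). They were 1.41 for macrophages (5 of 10 rose) and 1.87 for neutrophils (2 of 6 rose). Over all genes 3.67% fell and 3.76% rose. Their part in the values of the 16 muscle genes was not tested.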

How the data were processed

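RNA-seq was made from the outer tissues of the femoral artery in 2 sham and 2 injury libraries. Per the labels and methods, a stranded mRNA kit was used on 480 ng of RNA, and paired-end reads of 150 bp were checked with FastQC 0.11.8, cleaned with cutadapt 1.18 and Trimmomatic 0.39, aligned to mm9 with STAR 2.6.0a and counted with featureCounts, with DESeq2 1.28.0 for testing. The deposited values are a signed score per gene and library. They are not counts, 50.5% lie below 0, and the step that made them, the log base and the filter on genes are not given in the sources used here. A count model and a filter on low values were therefore not possible, and depth and abundance are unknown.

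limma 3.58.1 in R 4.3.3 was fitted to all 12661 genes (group as the only term, 2 residual degrees of freedom, 3.48 prior degrees of freedom) with Benjamini-Hochberg adjustment and a threshold of 0.05, and was tested on simulated data. The members and lists were chosen with earlier results of these data known. All 16 members were named, and from each further muscle list the genes called and those with the lowest and highest difference. Coordinates are from GENCODE on NCBIM37, the assembly of mm9. Promoters were matched by symbol to RefSeq windows on GRCm38.p6. Older symbols recovered no further member. The fit was repeated with a threshold of 0.1, with a robust variance prior, with a block for the replicate number, with repeated rows kept once, after quantile normalization or scaling of the columns to one spread, and without each library. Tables were handled with pandas 2.3.3 and plots drawn with matplotlib 3.10.9.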

Additional observations from a re-analysis of the deposited data

How the results depend on the processing

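Over all genes limma made 941 calls, and 2317 at an adjusted p-value under 0.1. Leaving out each library gave from 0 to 1790, where the group left with 1 library is assumed to vary like the other. Of the 16 muscle genes 0 were called, which became 7 at the threshold of 0.1, 1 after quantile normalization (1061 of all genes), 3 with columns scaled to one spread (1130 of all genes) and 0 to 3 with each library left out. Leaving out each library moved the median difference of the 16 genes between -0.97 and -0.31, that of the fast fibre genes between -0.95 and -0.27, that of *Tnnt1* between -0.23 and -0.05, and the fast minus slow value between -0.80 and -0.14. The same range was -0.77 to 0.33 for *Tnni2*, -0.26 to 0.21 for *Eno3*, -0.47 to 0.35 for *Asph* and -0.19 to 0.12 for *Mef2c*, the 4 of the 32 named genes whose direction reversed. With the replicate block, 684 genes and 1 of the 16, *Atp2a1* (adjusted p = 0.0470, from 0.0470 to 0.358 over the alternatives), were called. *Flnc*, *Jph2*, *Cox7a1*, *Cox8b* and *Chrnb1* lost their calls with it and *Actc1* was called (adjusted p = 0.0358). The numbers do not pair the samples by any label, and deviations of same-numbered libraries correlated at -0.09 across genes. With 2 libraries per group and no read depth, no counting error can be given, and an exact test of 1 gene cannot go below p = 0.333.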

Other observations

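Genes that muscle uses while it forms or that heart uses were 3 of 9 listed, and none was called by limma, with 1 of the 3 at an unadjusted p-value under 0.05, against 29.5% of all genes. That gene was *Actc1*, cardiac alpha-actin, at 0.09 and 1.16 in the sham libraries and at -1.32 and -0.15 in the injury libraries, a difference of -1.36 (standard error 0.50, adjusted p = 0.145). The difference was -0.78 without injury replicate 1 and -0.82 without sham replicate 2. It passed the threshold without injury replicate 2 (-1.94, adjusted p = 0.0469) and not without any other library, the adjusted p-values running from 0.0358 to 0.431 over the alternatives. Its highest library was sham 2, where most skeletal muscle genes were highest in sham 1. *Tnni3*, the cardiac troponin I, was at -0.20, -1.11, 0.17 and -0.21, a difference of 0.64 (adjusted p = 0.257) with groups that overlapped, and 0.18 without sham replicate 2 and 1.09 without sham replicate 1.

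Of 8 genes linked to muscle atrophy 7 were analysed, none was called, and 2 of the 7 had an unadjusted p-value under 0.05, a share near the 29.5% of all genes. *Fbxo32*, the ubiquitin ligase atrogin-1, was at 0.47 and 0.08 after sham operation and at -0.66 and -0.13 after injury, a difference of -0.67 (standard error 0.24, adjusted p = 0.138), or -0.41 without injury replicate 1. *Gadd45a*, a stress response gene, was at -0.54 and -0.72 after sham operation and at 0.46 and -0.29 after injury, a difference of 0.72 (adjusted p = 0.150). Without injury replicate 1 the difference was 0.34, and without injury replicate 2 it was 1.09 (adjusted p = 0.0207, from 0.0207 to 0.400 over the alternatives).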
